A study of Mus musculus with 3 samples.

Results

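The genes described are 51 ligands, antagonists, receptors, Smads and response genes of the Bmp, Gdf and Tgfb signalling pathways, out of 34797 gene names on the array. They were chosen by name from pathway membership, a rule that uses no measured value, and all 51 had at least 1 probe. They were followed in the posterior frontal suture, the midline suture between the mouse frontal bones, on 3 Agilent one-colour arrays of total RNA. The groups were C57BL/6 wild type at postnatal day 5 (P5), C57BL/6 wild type at day 7 (P7) and C57BL/6 Runx2+/- at P7. Runx2 encodes a transcription factor that osteoblasts need to form. Each group had 1 array, and neither the number of mice behind an array nor the part of Runx2 that the mutant allele lacks is stated in the labels. Every difference is therefore between 2 hybridised samples, with no replicate check and no p-value.

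Ligands of this family bind paired type I and type II serine/threonine kinase receptors, which phosphorylate receptor Smads that enter the nucleus with Smad4. Bmps and several Gdfs act through Smad1, Smad5 and Smad9, whereas Tgfbs and activins act through Smad2 and Smad3, and secreted proteins such as noggin hold ligands away from their receptors. In the skull these signals act on suture mesenchyme and osteoblasts, and the posterior frontal suture of the mouse is the cranial suture that closes soon after birth.

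Levels are log2 values relative to the 75th percentile of the same array's probes, so they follow a probe across arrays and do not rank genes. A gene is represented by its brightest probe. From probes spotted at least 5 times, the technical SD of a log2 difference was 0.24 for P7 against P5 wild type (age) and 0.21 for Runx2+/- against P7 wild type (genotype). The share of probes well above background was 40.1%, 29.2% and 47.3% (always in the order P5, P7, Runx2+/-), and the processed intensity at the 75th percentile was 52.1, 22.8 and 124. The age and genotype differences share the P7 wild-type array, which was the dimmest. Runx2 stood at 2.38, 1.46 and 1.08 on the 3 arrays, and this does not check the genotype because the missing part of the allele is not given. Osteoblast markers were all well above background on each array (10 of 10), as were 7 of 8 suture mesenchyme markers, with Axin2 the exception.

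Sequences upstream of the start site are shown for Bmp8a, Tgfb1 and Fstl1, which had the largest differences between genotypes, and for Id2 and Id3, Bmp-responsive genes that differed the same way. Each run is 250 bases, 5′ to 3′ on the gene's strand, from RefSeq on GRCm38.p6, and capitals mark GGCGCC, a GC-rich Smad motif.
Bmp8a upstream of the start, chr4:123343253-123343502 (-): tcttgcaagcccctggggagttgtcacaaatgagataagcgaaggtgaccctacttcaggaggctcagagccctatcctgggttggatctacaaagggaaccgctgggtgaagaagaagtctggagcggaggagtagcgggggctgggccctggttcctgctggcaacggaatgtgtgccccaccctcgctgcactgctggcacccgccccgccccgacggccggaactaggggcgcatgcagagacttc
Tgfb1 upstream of the start, chr7:25686752-25687001 (+): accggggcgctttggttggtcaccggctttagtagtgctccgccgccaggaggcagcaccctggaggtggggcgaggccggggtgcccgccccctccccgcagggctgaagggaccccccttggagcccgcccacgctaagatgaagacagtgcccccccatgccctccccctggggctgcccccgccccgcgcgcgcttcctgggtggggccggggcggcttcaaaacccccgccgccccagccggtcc
Fstl1 upstream of the start, chr16:37776805-37777054 (+): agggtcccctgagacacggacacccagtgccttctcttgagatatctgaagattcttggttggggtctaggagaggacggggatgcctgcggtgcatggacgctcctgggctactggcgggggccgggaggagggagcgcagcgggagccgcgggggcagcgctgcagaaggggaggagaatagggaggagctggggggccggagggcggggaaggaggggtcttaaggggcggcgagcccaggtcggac
Id2 upstream of the start, chr12:25096093-25096342 (-): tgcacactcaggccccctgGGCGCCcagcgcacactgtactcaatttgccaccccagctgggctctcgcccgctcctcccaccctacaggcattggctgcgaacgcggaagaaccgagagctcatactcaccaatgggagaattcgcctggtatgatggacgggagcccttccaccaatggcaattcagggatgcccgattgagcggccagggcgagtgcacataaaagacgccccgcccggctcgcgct
Id3 upstream of the start, chr4:136143572-136143821 (+): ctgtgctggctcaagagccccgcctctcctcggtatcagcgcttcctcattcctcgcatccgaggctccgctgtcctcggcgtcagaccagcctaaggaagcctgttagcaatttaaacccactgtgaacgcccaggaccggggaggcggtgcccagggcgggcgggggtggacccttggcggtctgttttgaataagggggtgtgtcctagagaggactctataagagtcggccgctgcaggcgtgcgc
Windows of 300 bases, which add 50 bases after the start, were found for 35 of the 51 genes, and some genes had several that overlap, 43 in all. GGCGCC was in 14 of the 43 windows (32.6%), those of 12 genes, against 11.9% of all 32851 windows. The Runx motif TGTGGT was in 1 window, that of Ltbp1, against 16.8% of all windows. The Smad motif CAGACA was in 8 windows (18.6%) against 21.0%, and the Smad palindrome GTCTAGAC was in 1, that of Smad6, against 0.213%. All were searched on both strands. A match is a string of letters and not a bound site, and a window without one says nothing about the factor.

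Of the 51 genes, 35 were well above background on all 3 arrays, 7 on all but the P7 wild-type array (Gdf5, Inhbb, Nog, Chrd, Smad1, Smad2 and Id4) and 3 on the Runx2+/- array (Acvr2a, Smad7 and Smad9). The other 6, Bmp5, Bmp8b, Gdf6, Grem1, Bambi and Bmpr1b, did not reach that level anywhere. The number detected per array was 42, 35 and 45, in the same order as the brightness of the arrays. A gene could be ordered between 2 arrays where it was above background on both, or, as a lower bound, on the higher array alone.

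**Figure D1:**
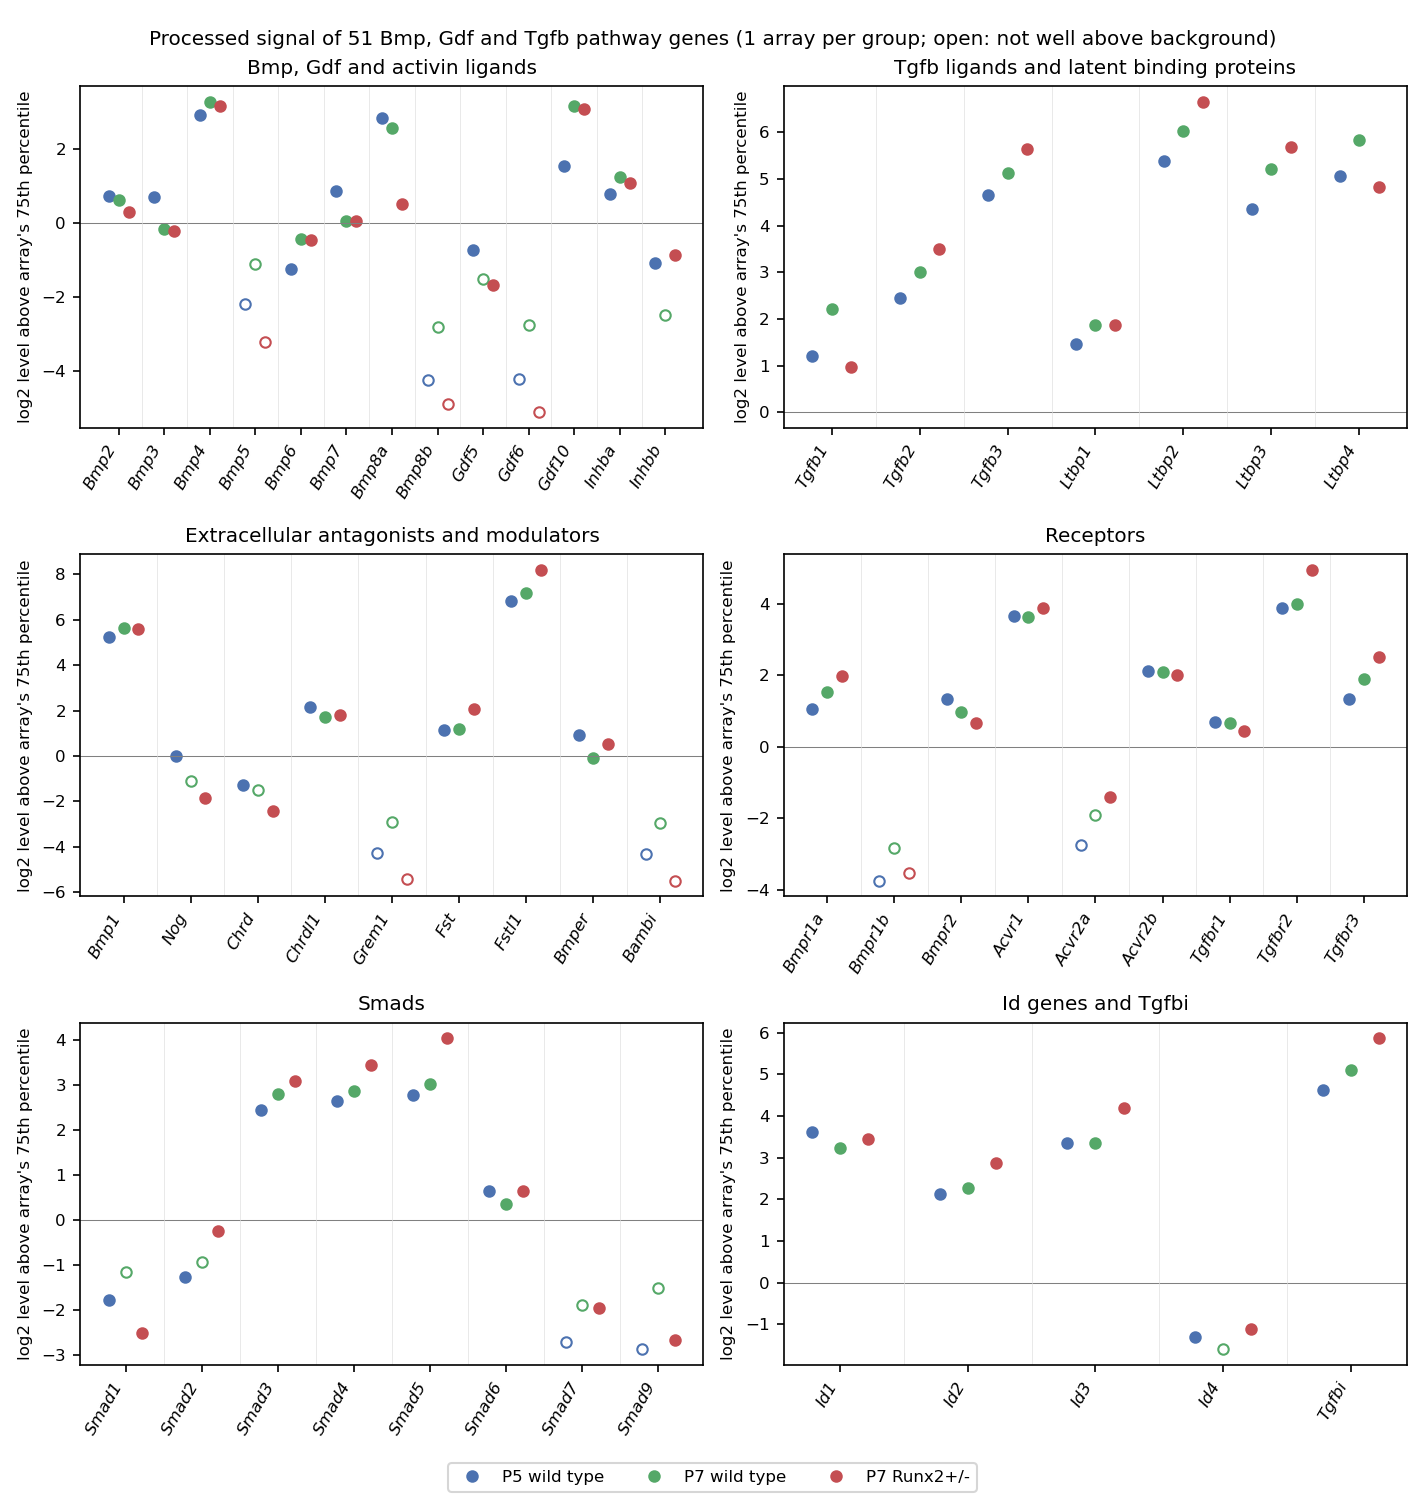
Level of each of the 51 genes on the 3 arrays (log2, relative to the 75th percentile of its array), 1 panel per role, with open symbols where the probe was not well above background. Bmp8a stands apart on the Runx2+/- array, Gdf10 on the P5 wild-type array, and Tgfb1 and Ltbp4 are highest on the P7 wild-type array.

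With age, 36 genes could be ordered, and 2 of them (5.56%) were at least 2-fold apart, Gdf10 higher and Bmper lower at P7, against 9.5% of the 14157 genes ordered on the arrays. The 1 higher is 2.78% against 6.39% of all genes, and the 1 lower is 2.78% against 3.12%. Their median difference was 0.23 (SD over genes 0.56), against 0.04 over all genes. With genotype, 36 genes could again be ordered and 5 (13.9%) were at least 2-fold apart, against 18.9% of 14250 genes. Fstl1 and Smad5 were higher in Runx2+/-, which is 5.56% against 5.04% of all genes, and Bmp8a, Tgfb1 and Ltbp4 were lower, which is 8.33% against 13.9%. The median was 0.27 (SD over genes 0.64), against 0.13 over all genes. The shares past 2-fold were thus no higher than the background in either comparison as a whole. Scaling to probes detected on all arrays left 0 higher and the same number lower with genotype. The share of all genes apart was then 18.7% by the 75th percentile and 18.9% by the median. Normexp background correction with the 75th percentile gave 18 higher and 0 lower of 36. Under it 4329 of all 13671 ordered genes were higher and 533 lower, with a median of 0.62, so the whole array shifted upward.

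Among Bmp, Gdf and activin ligands the genotype difference lay almost entirely in Bmp8a. Its level was 2.83 at P5, 2.55 at P7 and 0.50 in Runx2+/-, so the mutant array stood apart from both wild types. That is 4.13-fold lower than in P7 wild type (log2 difference -2.05), and under normexp with the 75th percentile it was -0.84, short of 2-fold. Bmp8a is a ligand related to Bmp5, Bmp6 and Bmp7, and its probe lies at chr4:122989906-122989965 (minus strand, mm9). Bmp8b, a closely related paralog, was too dim to detect on each array, and cross-hybridisation between them was not tested. The probe's first 30 of 60 bases are shown for that reason.
Bmp8a probe, chr4:122989906-122989965 (-): taaagagacagagacaggagaatctctgtg
The other 7 ordered ligands differed by at most 0.34 log2 units between genotypes. Bmp2, an osteoinductive ligand, had the largest of these differences (-0.34), and Bmp4, which acts in cranial neural crest and osteoblasts, stood at 2.90, 3.27 and 3.16. In all, 1 of the 8 ordered ligands was above 0 and 7 below, with a median of -0.09. Normexp with the 75th percentile moved the median of all genes to 0.62 and turned this split to 5 above and 3 below.

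Osteoblast markers moved with genotype on the same arrays. Their summed level, on a linear scale relative to the 75th percentile, was 4116 at P5, 6296 at P7 and 1584 in Runx2+/-, and 9 of 10 were at least 2-fold lower in Runx2+/- (median -2.01). Osteoclast markers summed to 150.7, 304.1 and 136.1 with 5 of 6 above background on each array, Calcr being the exception, and 4 of 5 were at least 2-fold lower in Runx2+/-. Chondrocyte markers summed to 17.7, 32.1 and 56.0 with 7, 6 and 8 of 9 above background. Their median genotype difference was 0.92, with 7 of 8 ordered above 0 and Acan lower (-0.67). Matn3 was not detected on any of the 3 arrays. Sox9 and Matn1 were also too dim at P7 wild type, and Matn1 at P5. With genotype Sox9 and Matn1 entered as lower bounds, which by the rule could only lie above 0. Endothelial markers summed to 64.4, 70.5 and 58.5 with 7, 6 and 7 of 7 above background, Tek being the one missed, while their median genotype difference was 1.11, so sum and median differ in sign. Neutrophil markers had a median genotype difference of 2.27. Suture mesenchyme and osteoprogenitor markers summed to 39.9, 54.7 and 60.6. Of the 7 ordered with genotype, 5 were above 0 and 2 below, with a median of 0.40. Twist2 was at least 2-fold higher in Runx2+/- (1.36), and Gli1 (-1.70) and Twist1 (just past 2-fold) were lower. The part of these cell types in the differences of Bmp8a, Tgfb1, Ltbp4 and the genes higher in Runx2+/- was not tested. In bulk tissue fewer cells of a type and less RNA per cell cannot be told apart.

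With age the ligands went in both directions, with 4 of 8 above 0 and a median of 0.14. Gdf10, a Bmp3-related ligand also called Bmp3b, stood at 1.53 at P5, 3.14 at P7 and 3.07 in Runx2+/-. Both P7 arrays were thus high and close to each other, and the age difference was 3.06-fold (1.61). It fell short of 2-fold under normexp with the 75th percentile (0.82). Bmp3, which opposes other Bmps in bone, had the reverse order, with 0.70 at P5, -0.16 at P7 and -0.21 in Runx2+/-. Bmp7 stood at 0.86, 0.04 and 0.06, and Bmp6 at -1.24, -0.44 and -0.47. In these 4 ligands the Runx2+/- array was at most 0.07 from the P7 wild-type array, less than the technical SD. This closeness depended on the background correction. Under normexp with median scaling the genotype differences of Bmp3, Bmp6 and Bmp7 were -0.80, -0.92 and -0.61, where the median of all genes was -0.05, and under normexp with the 75th percentile that of Gdf10 was 0.91. The age difference of Bmp3 also shrank, from -0.86 to -0.07 under normexp with median scaling, and that of Bmp7 from -0.82 to -0.27. For Bmp6 it went from 0.80 to 0.33 under normexp with the 75th percentile. Inhba, the activin A subunit, stood at 0.77, 1.23 and 1.09. Gdf5, which marks developing joints, was -0.73 at P5 and -1.67 in Runx2+/-, and Inhbb was -1.08 and -0.86, both being too dim at P7 wild type to be ordered.

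Most neutrophil markers moved strongly with age, their summed level being 881 at P5, 77.2 at P7 and 350.2 in Runx2+/-. On each array 8 of 8 were above background. With age 6 of 8 were at least 2-fold lower (median -3.64), Mpo was lower by less (-0.80) and Elane was higher (0.74). Neural and glial markers summed to 11.1, 4.53 and 4.41 with 5, 3 and 4 of 5 above background, and 4 of 4 were lower at P7 wild type (median -1.40), Tubb3 by 4.02-fold and Stmn2 by 4.03-fold. Gfap was not detected on either P7 array, nor Mbp at P7 wild type. Skeletal muscle markers summed to 7.23, 4.76 and 4.44 with 3, 2 and 3 of 6 above background, Myh3, Ckm and Mylpf being undetected throughout and Tnnt3 at P7 wild type. Macrophage markers (6 of 6 on each array) summed to 61.5, 73.0 and 78.3. Chondrocyte markers had a median age difference of 0.94, with 3 of 6 at least 2-fold higher. Osteoclast markers were higher at P7 in 5 of 5 (median 0.88), osteoblast markers had a median age difference of 0.64, and leptomeningeal markers summed to 56.6, 13.6 and 16.1 with 5, 3 and 4 of 5 above background. Slc6a13 and Slc22a6 were the leptomeningeal markers not above background at P7 wild type, and Slc22a6 in Runx2+/-. Of the 5 leptomeningeal markers, 4 were lower at P7 wild type, 2 of them as bounds, and 1 was higher (median -0.46). The sum follows mostly Ptgds, which stood at 5.60, 2.83 and 2.16. Foxc1 was nearly level with age (-0.06), and Foxd1 went the other way (1.28). The part of these cell types in the age differences was not tested.

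**Figure D2:**
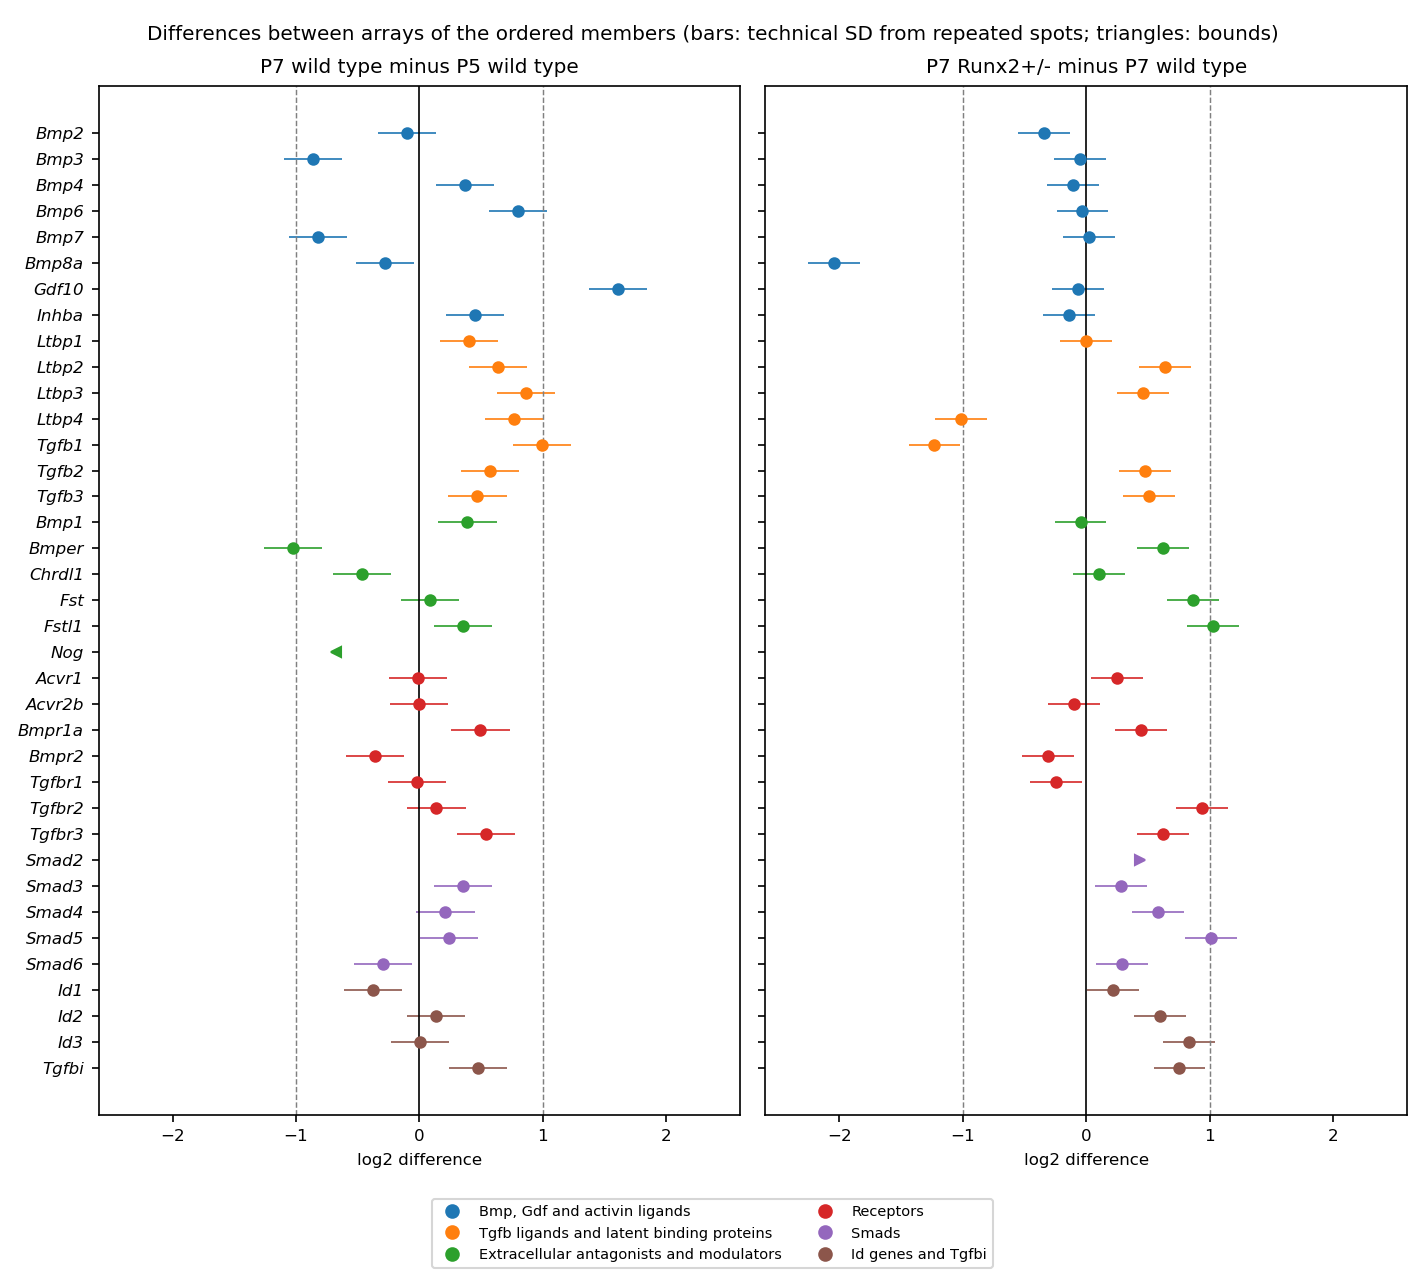
Log2 difference of each gene that could be ordered, P7 minus P5 wild type (left) and Runx2+/- minus P7 wild type (right), coloured by role, with bars for the technical SD, triangles for lower bounds and dashed lines at 2-fold. All 7 Tgfb ligands and latent binding proteins lie right of 0 with age, and with genotype Tgfb1 and Ltbp4 lie left while most of the group lies right.

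The Tgfb ligands and latent binding proteins shared a direction with age. All 7 were higher at P7 wild type, by 0.40 to 0.997 log2 units with a median of 0.64, each by more than the technical SD. Under normexp with the 75th percentile, where the median of all genes was -0.25, 3 were above 0 and 4 below, and all 7 were above that median. None passed 2-fold, Tgfb1 being just short at 1.995-fold, whereas Bmper was just past it at 2.03-fold.

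With genotype the same group divided. Tgfb1, the ligand whose latent form is stored in bone matrix, stood at 1.21 at P5, 2.21 at P7 and 0.98 in Runx2+/-. Its level was high on the P7 wild-type array alone, and the genotype difference was -1.23 (2.35-fold). This probe (chr7:26489877-26489936, plus strand, mm9) was spotted 10 times, with spot SDs of 0.07, 0.12 and 0.05, and 7 of the spots were usable at P7 wild type. The spots of the 3 arrays did not overlap.

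Tgfb3, a ligand active in palate and suture tissue, stood at 4.66, 5.13 and 5.64 with spot SDs of 0.07, 0.04 and 0.05. Tgfb2 stood at 2.44, 3.01 and 3.49, and its second probe had a genotype difference of 0.60 beside 0.48 from the first. Both ligands were thus highest in Runx2+/-, in the direction opposite to Tgfb1. The spots measure the precision of a hybridisation and carry nothing on the spread between mice.

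The latent binding proteins, which tether the Tgfb complex to matrix, divided in the same manner. Ltbp4 stood at 5.06, 5.83 and 4.82, a genotype difference of -1.01 (2.02-fold lower), and its second probe gave -0.91. Ltbp2 stood at 5.38, 6.02 and 6.66, Ltbp3 at 4.36, 5.23 and 5.69, and Ltbp1 at 1.46, 1.86 and 1.86. Ltbp2 and Ltbp3 were highest in Runx2+/-, and Ltbp1 was equal on the P7 arrays. Ltbp4 changed sign under normexp with the 75th percentile (0.24), whereas Tgfb1 stayed negative under every alternative, from -1.48 to -0.29, the last, under normexp with the 75th percentile, being short of 2-fold.

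Among the extracellular antagonists and modulators, Fstl1, a secreted follistatin-like glycoprotein reported to bind Bmp4, stood at 6.81, 7.16 and 8.19. Its Runx2+/- level was 2.04-fold above P7 wild type (1.03). Fst, the activin antagonist follistatin, stood at 1.12, 1.21 and 2.07, again highest in Runx2+/-. Bmper, a secreted Bmp-binding modulator, was highest at P5, with levels of 0.94, -0.08 and 0.54. Its age difference was -1.02 and its genotype difference 0.62. Under normexp with median scaling these were -0.15 and -0.39, so the age difference lost its size and the genotype difference its direction.

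The Bmp-binding antagonists Nog and Chrd were not detected at P7 wild type. Nog was -0.02 at P5 and -1.84 in Runx2+/-. Set against the lowest detectable level at P7 wild type, it was at least 1.59-fold lower there than at P5. Chrd, whose product chordin binds Bmps and is cleaved by Bmp1, was -1.28 at P5 and -2.41 in Runx2+/-, and could not be ordered against P7 wild type. Runx2+/- against P5 differs in both age and genotype, and its difference was -1.82 for Nog and -1.14 for Chrd. Chrdl1, a chordin-like protein, was 2.18, 1.71 and 1.81. Its 3′-most probe was 0.90 and another 0.88 higher in Runx2+/- than at P5, where the brightest was lower by a difference of -0.37. Both of the dimmer probes were not above background at P7 wild type, and their genotype differences were lower bounds of 0.02 and 0.09.

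Bmp1 and Tgfbr2 are shown by probe because their probes gave different answers. Bmp1 encodes the procollagen C-proteinase, and its 3 probes lie on the minus strand of chromosome 14 (mm9). The probe nearest the 3′ end, which is also the brightest, had levels of 5.24, 5.63 and 5.58. The probes 12045 and 15985 bases further upstream had levels of 4.34, 5.21 and 4.03, and of 1.76, 2.30 and 1.08. Their genotype differences were -1.18 and -1.22, beside -0.05 for the first, so a gene level for Bmp1 depends on the probe. All 3 probes were higher at P7 than at P5 wild type, by 0.39, 0.87 and 0.54. For Tgfbr2, the type II Tgfb receptor, the brightest and 3′-most probe had 3.87, 4.01 and 4.95. The probe 2341 bases upstream had 3.25, 2.57 and 2.10. The genotype difference was 0.94 by the former and -0.47 by the latter, so no direction can be given for Tgfbr2. The first 30 bases of each probe are given, 5′ to 3′, in the order 3′-most first.
Bmp1 probe, chr14:70874370-70874429 (-): aggcccactggctcatcagccacaccaggg
Bmp1 probe, chr14:70886415-70886474 (-): tgtgacatttcctgttgtgaagtaaaagag
Bmp1 probe, chr14:70890355-70890414 (-): ggcccccacccagtaccgtatctccctgca
Tgfbr2 probe, chr9:115997155-115997214 (-): tctagcggggaatttacagaatgctggtcc
Tgfbr2 probe, chr9:115999496-115999555 (-): gggaggagctgctcccaggagaagattcca
Over the 7 genes with at least 2 probes above background on the arrays compared, the probes had the same sign in 5 with age, the exceptions being Acvr1 and Tgfbr2, and in 6 with genotype, the exception being Tgfbr2. Between Runx2+/- and P5, 4 of 9 genes had probes of opposite sign (Bmp1, Chrdl1, Ltbp4 and Tgfbr2). The median range between probes of a gene was 0.19 with age and 0.12 with genotype. Whether these probes read different transcripts was not tested.

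**Figure D3:**
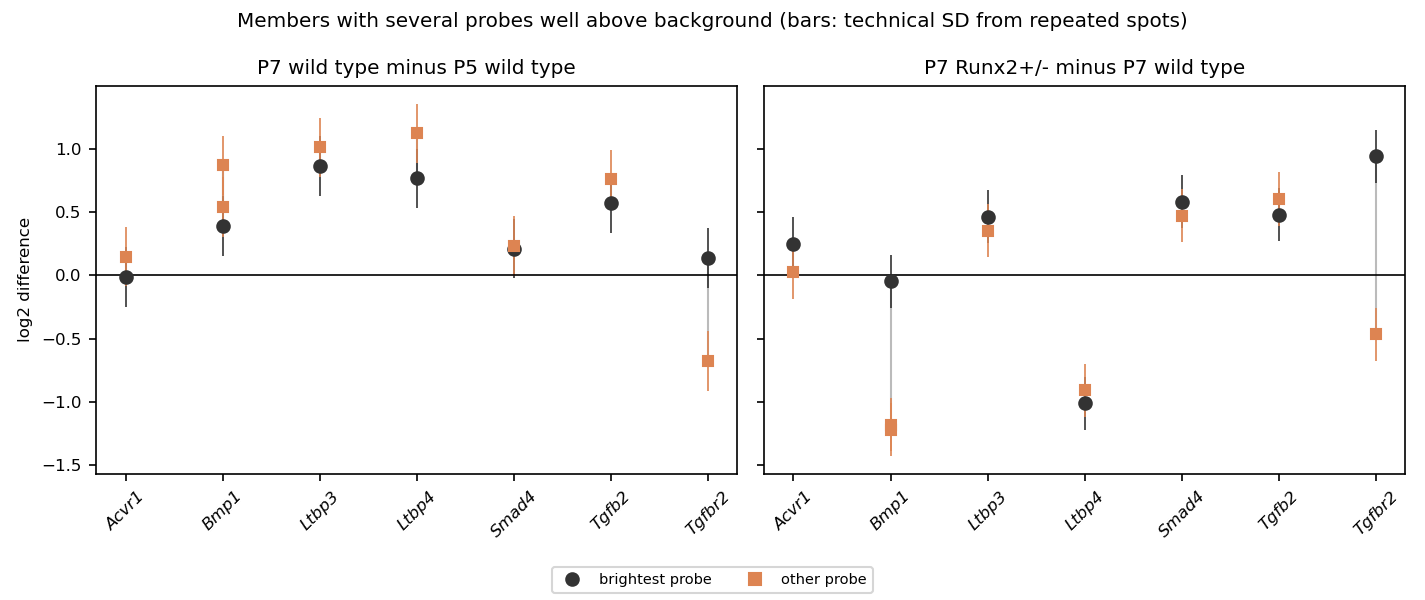
Log2 difference by probe for the 7 genes with several probes above background (bars are the technical SD), with the brightest probe in black. Genotype differences of Bmp1 and Tgfbr2 lie on different sides or at different distances from 0 depending on the probe, whereas those of Ltbp4, Smad4, Tgfb2 and Ltbp3 lie close together.

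No receptor was 2-fold apart with age or with genotype. Acvr1, the type I receptor Alk2, stood at 3.64, 3.63 and 3.88, with age differences of -0.01 and 0.15 from its probes. Bmpr1a, a type I Bmp receptor, stood at 1.05, 1.54 and 1.99, and Bmpr2, its type II partner, at 1.34, 0.98 and 0.67, an opposite order. Tgfbr3, the coreceptor betaglycan, stood at 1.34, 1.88 and 2.51, so that Runx2+/- was 2.24-fold above P5, a difference in both age and genotype. Acvr2b, an activin type II receptor, and Tgfbr1, the type I Tgfb receptor, lay within 0.24 in both comparisons. Acvr2a was -1.42 in Runx2+/- and could be ordered only against P5, as a lower bound of 0.70.

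Smads were higher in Runx2+/- where they could be ordered against P7 wild type. Of the 8 Smads, 5 could be, all above 0 with a median of 0.44, against 0.13 over all genes. Only 4 of these were above background on both arrays. Smad2 entered as a lower bound, which by the rule could only lie above 0. Smad1, Smad7 and Smad9 were too dim at P7 wild type to be ordered. Smad5, a Bmp receptor Smad, stood at 2.78, 3.02 and 4.04, which is 2.02-fold higher in Runx2+/- (1.01). Smad4, the common partner, stood at 2.65, 2.86 and 3.44, and its second probe gave 0.47 beside 0.58. Smad3, a Tgfb receptor Smad, stood at 2.45, 2.80 and 3.08 by its brightest probe. Its second probe was detected at P5 alone and could not be ordered between genotypes. For Runx2+/- against P5 that probe gave a bound of -1.90, where the brightest gave 0.63. The inhibitory Smad6 stood at 0.65, 0.35 and 0.65. Smad2 was at least 1.35-fold higher in Runx2+/- than in P7 wild type, since it was not above background in the latter. The direction was shared under each alternative except no filter on dim probes, with 5 of 8 above 0, and normexp with median scaling, with 3 of 4 and Smad6 at -0.32. Smad1 was -1.78 at P5 and -2.53 in Runx2+/- by its brightest probe, whereas its 3′-most probe, detected in Runx2+/- alone, was higher there than at P5 by a lower bound of 0.91, so no direction can be given. Smad7 and Smad9 were detected in Runx2+/- alone (-1.96 and -2.66). With age, 3 of 4 ordered Smads were above 0, with a median of 0.23.

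The Id genes are immediate targets of Bmp receptor Smads and encode inhibitors of basic helix-loop-helix factors. They and Tgfbi, a Tgfb-induced matrix protein, were higher in Runx2+/- where they could be ordered against P7 wild type. Of the 5, 4 could be ordered, with a median of 0.68 against 0.13 over all genes, and Id4 was too dim at P7 wild type. The direction was the same in every setting tried. Id1 differed by only 0.22, close to the technical SD of 0.21. Under cyclic loess its difference was 0.05, where the median of all genes was 0.05. Id3 stood at 3.35, 3.36 and 4.19, Id2 at 2.13, 2.27 and 2.87, and Id1 at 3.61, 3.24 and 3.45. Id2 and Id3 were thus highest in Runx2+/- and close between the wild types, whereas Id1 was highest at P5. Tgfbi stood at 4.63, 5.11 and 5.87, and Id4 was -1.31 at P5 and -1.12 in Runx2+/-. None was 2-fold apart. The Id2 window above holds GGCGCC, 231 bases before the start, and the Id3 window does not.

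The wider pathway was followed through 89 further genes, all with a probe. Of these, 57 could be ordered with age, 3 at least 2-fold higher and 1 lower (7.02%, against 9.5% of all genes), with a median of 0.22 against 0.04. With genotype 57 could be ordered, 1 at least 2-fold higher and 3 lower (7.02%, against 18.9%), with a median of 0.20 against 0.13. Among known targets 18 of 20 could be ordered with genotype, 8 above 0 and 10 below, with a median of -0.13. The homeobox gene Dlx5 was -3.00, Col1a1 -2.48, the matrix glycoprotein Tnc -1.61 and smooth muscle actin Acta2 -0.97. In the other direction, Snai2 was 0.94 and Ctgf 0.92. Col1a1 is also an osteoblast marker. Among 17 of 28 ordered antagonists, coreceptors and activation proteins, Thbs1, whose product activates latent Tgfb, was 1.66, Dand5 -0.85, Bgn 0.63 and Nbl1 -0.53. Of 20 intracellular regulators 17 could be ordered, with Tgif1, a Smad corepressor, at 0.88 and Strap at 0.86, and lower bounds of 0.78 for Nedd4l and 0.60 for Lemd3. The ligand Inha was 0.82, Gdf1 0.44 and Lefty1 -0.23, and the receptors Acvr1b and Acvrl1 were 0.50 and -0.44. With age, Nbl1 (1.19) and Snai1 (1.26) were higher, Lefty1 was higher by a lower bound of 1.85, and Tnc was lower (-1.12).

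**Figure D4:**
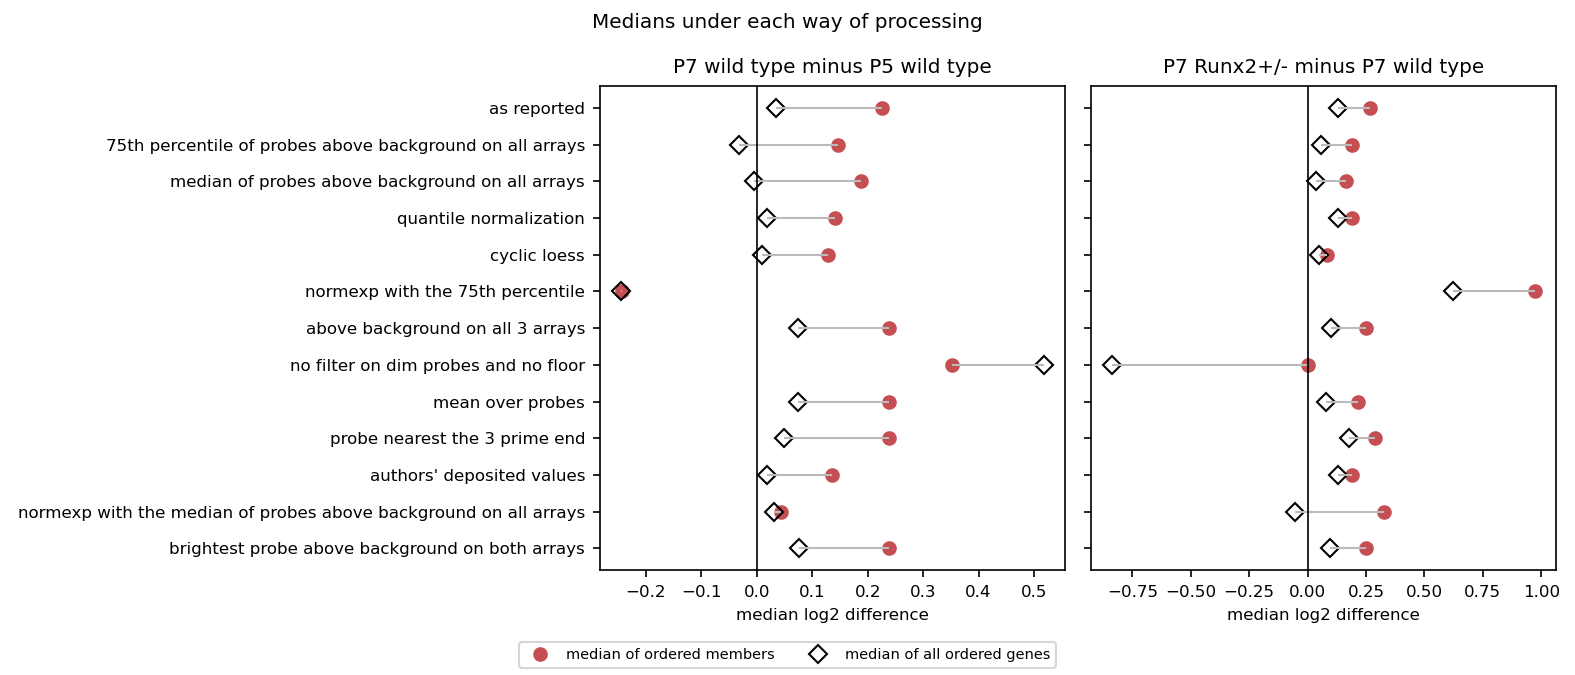
Median log2 difference of the ordered pathway genes (red) and of all ordered genes (open diamonds) under each way of processing, for age (left) and genotype (right). Normexp with the 75th percentile shifts both medians, to -0.24 and -0.25 with age and to 0.97 and 0.62 with genotype.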

How the data were processed

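Total RNA of 1 suture sample per group was labelled with Cy3 and hybridised to 1 array, per the labels' protocols. The authors deposited each array's scanner output, and the processed signal used here is a linear intensity already corrected for background by Agilent Feature Extraction (10.7.1.1 per the file headers, 9.5.1.1 per the submitters' processing notes). They also deposited a table of processed intensity values, whose column medians were 12.6 and whose scaling steps are not stated in any source used here; it served as an alternative. Control spots (55680 probes remained) and outlier spots were left out, spots of a probe were averaged as log2 values and each array's 75th percentile was subtracted. For bounds, a dim probe was set to its own value or, if that was lower, to the array's floor (-2.12 at P5, -0.69 at P7 and -3.25 in Runx2+/-). The 3 arrays lay on 1 slide with 1 scan date, so no batch could be compared, and their number limits the precision. Where only the brighter array was above background, a difference is a lower bound.

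No test was possible with 1 array per group. The steps were run on simulated data with changes planted in genes above background on all 3 arrays. Those data held spot noise alone, with no difference in array brightness or background, so they do not check such effects. The rule for the 51 genes uses no measured value, but it, the other lists and the alternatives were chosen with earlier results of these data known. Named are all 51 genes by role, with the largest genotype differences for the other lists. Alternatives covered scaling, normalization (limma 3.58.1 in R 4.3.3, normexp offset 50), filters, probe choice and thresholds of 1.5-fold and 3-fold; normexp with median scaling, the brightest probe above background on both arrays, and the Runx2+/- against P5 differences were added after seeing the data. Probe positions are those of the files (mm9), and exons and untranslated regions were not looked up.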

Additional observations from a re-analysis of the deposited data

How the results depend on the processing

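No paired analysis was possible because each group has 1 array and the labels carry no replicate numbers, and no array could be left out. The number of genes at least 2-fold apart with age was 2, and became 1 with cyclic loess, 0 with normexp and the 75th percentile, 10 without a filter on dim probes, 10 at 1.5-fold, 1 at 3-fold and 1 with normexp and median scaling. With genotype it was 5, and became 3 with either scaling to detected probes, 3 with quantile normalization, 3 with the authors' values, 18 with normexp and the 75th percentile, 13 without a filter, 13 at 1.5-fold, 1 at 3-fold and 8 with normexp and median scaling. The shares of all genes apart with genotype were 18.7% and 18.9% with the scalings to detected probes, by 75th percentile and by median. For the rest, in that order, they were 17.5%, 19.1%, 35.6%, 52.5%, 40.7%, 8.06% and 19.6%. With age the share of all genes was 10.49% with cyclic loess, 7.03% with normexp and the 75th percentile and 43.2% without a filter. It was 27.2% at 1.5-fold, 3.07% at 3-fold and 3.28% with normexp and median scaling. The 10 pathway genes without a filter were out of 51, and the 10 at 1.5-fold out of 36. The 2 pathway genes higher and 3 lower with genotype became 18 and 0 with normexp and the 75th percentile. The median became -0.24 with age and 0.97 with genotype under that setting, and 0.0012 with genotype without a filter, where the median of all genes was -0.84. Ltbp4 with genotype turned to 0.24 under normexp with the 75th percentile. Runx2+/- against P5, Tgfbr2 turned to -0.033 with the mean over probes and Smad2 to -0.070 with normexp and median scaling; by the 3′-most probe Smad1 turned from -0.75 to 0.91 and Chrdl1 from -0.37 to 0.90, and 13 of 44 genes changed sign under some alternative. The cause was not tested. Of 36 ordered genes, 16 kept their sign with age and 21 with genotype under each alternative in which they could be ordered (8 to 12 alternatives a gene). Bmp8a stayed lower in Runx2+/- (-2.29 to -0.84) and Fstl1 higher (0.93 to 2.32). Signal over background on the P7 wild-type array limits the dim genes.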
